A study of Xenopus laevis with 24 samples.

Results

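The dorsal marginal zone (DMZ) and the animal cap of the frog Xenopus laevis were compared by RNA sequencing at stage 11, in the course of gastrulation. The comparison uses 4 of the 24 libraries of a time course of Keller explants, chosen by their tissue and stage labels: DMZ replicates 1 and 2 against animal cap replicates 1 and 2, with same-numbered libraries paired. DMZ explants were cut at stage 10.5 and 5 or 6 of them went into a library, whereas 20 animal caps per library were cut at stage 8. Eggs were fertilised and kept in dilute MMR medium at 16 °C, DMZ explants were then cultured in Steinberg's solution, and both tissues were put into TRIzol when embryos of the same batch were at stage 11. No genotype or strain is given. The stage at cutting, the time in culture and the number of explants thus differ with the tissue, and their effects cannot be told apart from it. The labels do not say whether the replicates came from separate clutches, so the spread that p-values measure may be technical. That spread was taken over all 24 libraries, and not from the 4 compared alone. The 2 libraries of the ventral marginal zone (VMZ), 5 explants each, cut at stage 10.5 and collected at the same stage, are given beside some genes as levels only.

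In all that follows, values are given in the order replicate 1, replicate 2, and each group has 2 libraries. The animal cap is the roof of the blastula and the source of ectoderm. Left to itself it turns to epidermis under BMP signalling, and where BMP is blocked it turns to neural tissue. The DMZ holds the Spemann organizer, the dorsal mesoderm that Nodal and maternal Wnt signals induce, which secretes antagonists of BMP, Wnt and Nodal ligands and goes on to form prechordal plate and notochord. A Keller explant also carries the dorsal ectoderm that becomes neural plate. X. laevis is an allotetraploid, so that many genes have an L and an S copy (homeologs), which are named and measured separately here.

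The DMZ libraries held 30156485 and 7375650 counts and the caps 27077639 and 28669047, and DMZ replicate 2 had the lowest depth of the 24. Levels are given as CPM, the usual scaling of counts to library size, here with TMM factors, and 1 count stood for 0.128 CPM in DMZ replicate 2 and for 0.0322 to 0.0363 CPM in the other 3. Several markers went with the labels. The gene chrd.L, the organizer's BMP antagonist, was at 289 and 483 CPM in the DMZ against 1.16 and 1.55 CPM in the caps, whereas the epidermal keratin krt12.S was at 195 and 42.5 CPM in the DMZ against 789 and 232 CPM in the caps. Keratin transcript was thus present in the DMZ explants too. In the edgeR test described below, krt12.S had a log2 fold change of -2.13 (adjusted p = 0.042), and of -3.12 to -1.47 with 1 library left out. The call of krt12.S was lost without DMZ replicate 2 (log2 fold change -1.55) or cap replicate 1 (-1.47). Without the replicate block its adjusted p was 0.15 (edgeR). Summed levels of the 31 tested notochord models were 2136 and 2370.5 CPM in the DMZ libraries and 626 and 598 CPM in the caps, and those of the 62 non-neural ectoderm factors 2798 and 1954 CPM in the DMZ libraries and 8487 and 7892 CPM in the caps. The epidermal factor tp63.L, at 0.170 and 0.256 CPM in the DMZ against 0.326 and 0.0966 CPM in the caps, was near its floor in both tissues. Of other tissues, the endoderm marker sox17a.S was at 0.576 and 11.3 CPM in the DMZ against 0.834 and 3.61 CPM in the caps, the blood factor lmo2.S at 0.882 and 0.128 CPM in the DMZ against 0 and 0.0644 CPM in the caps and the muscle actin actc1.S at 3.09 and 1.41 CPM in the DMZ against 0.580 and 0.354 CPM in the caps. The level of lmo2.S was near the floor in DMZ replicate 2 and in both caps, and it does not stand for its list. The 27 blood and endothelium models summed to 352 and 187 CPM in the DMZ and 1454 and 1103 CPM in the caps. Of these models 4 were called higher in the DMZ and 1 lower. Several genes of the anterior and deep part of the DMZ were higher in its replicate 2 than in its replicate 1, with gsc.L at 2.27 and 32.1 CPM, cer1.S at 1.36 and 27.8 CPM and sox17a.S as given. In the caps sox17a.S was also higher in replicate 2 than in replicate 1. The part of this difference between the DMZ libraries in each result was not tested.

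Of 31349 gene models tested, 1692 (5.4%) differed between the tissues, 1195 (3.81%) higher in the DMZ and 497 (1.59%) lower (edgeR quasi-likelihood test with the replicate as a block, Benjamini-Hochberg adjusted p under 0.05). Both pairs gave the same sign for 1687 of the 1692. The calls were made on these same libraries, so this count is no separate check of them. The higher calls were also larger: 338 of them reached a fitted fold of 8 against 40 of the lower calls, and a fold of 64 was reached by 82 against 9. The fitted folds include those of models with no count in 1 tissue, 35 of the higher and 10 of the lower calls, where the fold has no defined size. For 68 models the caps averaged under 0.5 CPM and the DMZ at least 5 CPM, while 1 model showed the reverse. With only the 4 libraries fitted, 1276 higher and 1006 lower calls were made, and with all libraries but no replicate block 781 and 225. The fit of the 4 libraries alone has too few degrees of freedom to stand by itself. Both DMZ libraries lay above both caps for 5363 models (17.1%) and below both for 5549 (17.7%). With 2 libraries a group, random order alone often gives such separation, so these shares do not count models that differ. Medians of absolute log2 differences were taken over the 15051 tested models with a mean of 5 CPM or more in DMZ or cap. Replicate 2 differed from replicate 1 by 0.35 within the DMZ and by 0.31 within the caps. DMZ differed from cap by 0.25 in pair 1 and 0.23 in pair 2. With 1 library left out, 721 higher and 228 lower calls were made without DMZ replicate 1, 1067 and 205 without DMZ replicate 2, 714 and 163 without cap replicate 1, and 636 and 424 without cap replicate 2.

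**Figure D1:**
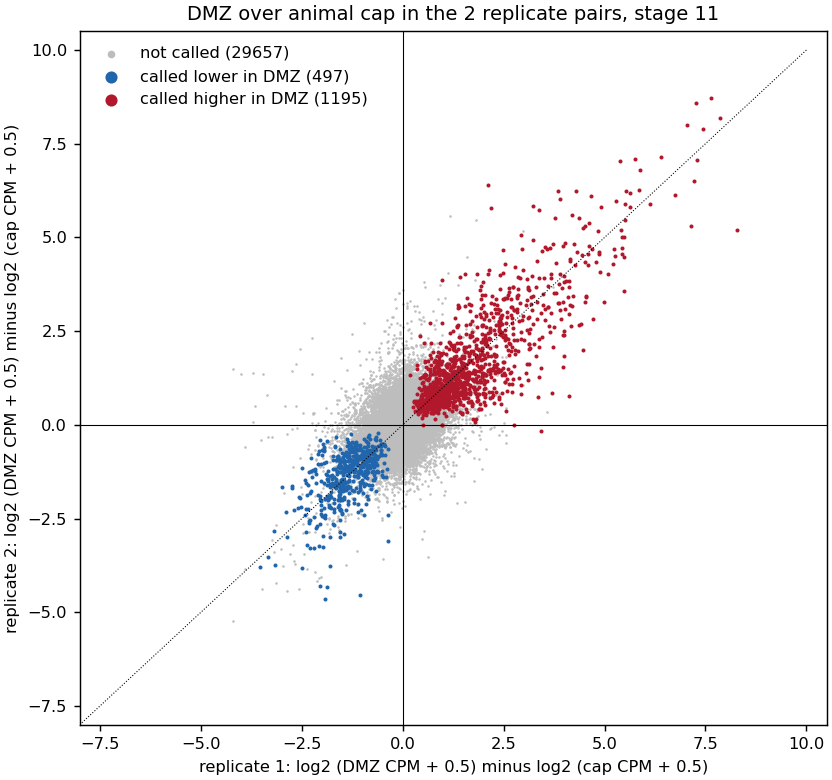
Difference between DMZ and animal cap in the replicate 1 libraries (horizontal) and in the replicate 2 libraries (vertical), each as log2 (CPM + 0.5) of DMZ minus cap, with 1 point per tested gene model, red for the 1195 called higher in the DMZ, blue for the 497 called lower and grey for the rest. Calls lie near the diagonal, and the higher calls reach further out than the lower ones.

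The genes of largest rise in the DMZ included several of dorsal mesoderm. The gene rgs16.S, a regulator of G protein signalling, was at 7.49 and 7.30 CPM in the DMZ and had no count in either cap, and the T-box gene t2.S (gene44007) was at 7.77 and 6.66 CPM with none in the caps. Against a floor of 3 counts over both caps they were at least 146-fold and at least 147-fold higher (adjusted p = 6.0e-07 and 2.2e-06, edgeR). Another model named t2.S (gene1212) had counts in the caps, and reads may be divided between models of this name. The largest falls were smaller and less stable. The gene nptx2.S, a neuronal pentraxin, was at 0.170 and 0.128 CPM in the DMZ against 2.03 and 15.2 CPM in the caps, a level close to the floor in the DMZ (log2 fold change -5.08 ± 1.01 (SE), adjusted p = 0.0058). The protocadherin pcdh9.L was at 0.746 and 0.768 CPM in the DMZ against 5.26 and 6.41 CPM in the caps, with no overlap between the tissues and a call that held without each library (log2 fold change -2.90 ± 0.45 (SE), adjusted p = 0.00058). Other large falls were those of tbx3.L, a T-box factor, at 2.78 and 0.640 CPM in the DMZ against 28.8 and 14.7 CPM in the caps, and of sox18.L, a factor known from endothelium in other vertebrates, at 0.949 and 0.640 CPM in the DMZ against 12.8 and 7.6 CPM in the caps. In both genes each cap lay above each DMZ library. For tbx3.L the log2 fold change was -3.59 ± 0.87 (SE), adjusted p = 0.027. For sox18.L it was -3.58 ± 0.74 (SE), adjusted p = 0.0079. The call of nptx2.S was lost without DMZ replicate 1 or DMZ replicate 2 or cap replicate 2 (adjusted p = 0.057, 0.072 and 0.061). The call of tbx3.L was lost without any 1 of the 4 libraries (adjusted p = 0.078 to 0.16) or without the replicate block (adjusted p = 0.075) or with only stages 11 to 12 fitted (adjusted p = 0.079). The call of sox18.L was lost without DMZ replicate 1 or DMZ replicate 2 or cap replicate 1 (adjusted p = 0.089, 0.068 and 0.090). A left-out library moved the log2 fold change by over 1.5 times in fold for nptx2.S (-6.30 without DMZ replicate 1, -5.86 without cap replicate 1, -3.91 without cap replicate 2), tbx3.L (-4.57 without DMZ replicate 1) and sox18.L (-2.95 without cap replicate 1).

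Named genes were sorted into 31 lists by known role, many of which share members. Lists and members were chosen with earlier results of these data known, so the shares called describe the lists and are no test of them. The shares of each list called are to be read against 3.81% higher and 1.59% lower over all tested models, whose median log2 fold change was -0.02.

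**Figure D2:**
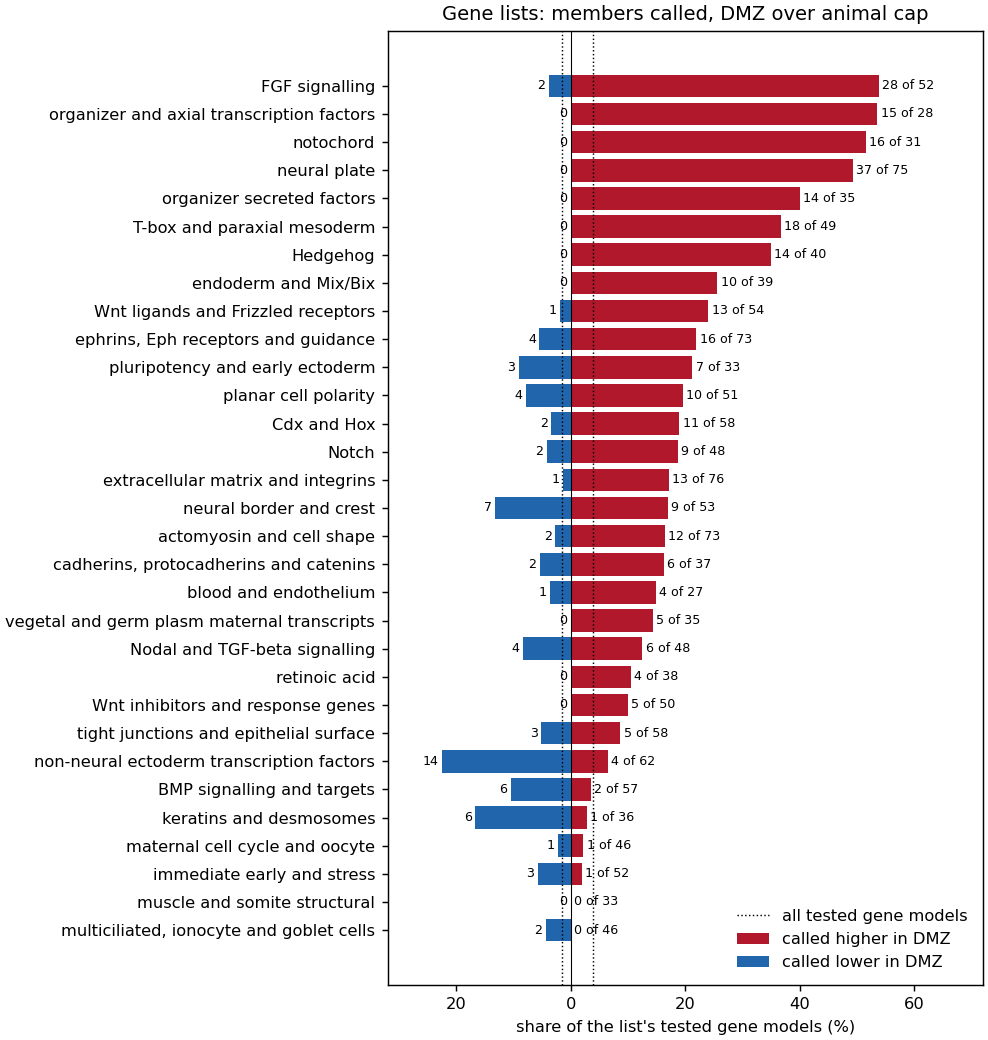
Share of the tested gene models of each list that were called higher in the DMZ (red, to the right) or lower (blue, to the left), with counts at the bar ends and dotted lines at the shares over all tested models, 3.81% and 1.59%. The FGF list has 28 of 52 models called higher, and the list of non-neural ectoderm factors 14 of 62 called lower. Lists and members were chosen with earlier results of these data known.

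Several secreted factors made by the organizer, antagonists among them, were higher in the DMZ. In the list of organizer secreted factors 14 of 35 tested models were called higher and 0 lower (median log2 fold change 2.29). With 0.5 CPM added, the median log2 difference of DMZ over cap was 0.57 in pair 1 and 2.28 in pair 2. The gene chrd.2.L, a chordin model, was at 200.3 and 358 CPM in the DMZ against 0.508 and 0.354 CPM in the caps, with VMZ levels of 0.400 and 0.405 CPM. Both DMZ libraries lay far above the caps (log2 fold change 9.31 ± 0.42 (SE), adjusted p = 4.9e-09). The gene admp.L, a BMP-like ligand made by the organizer, was at 69.3 and 92.8 CPM in the DMZ against 0.326 and 0.161 CPM in the caps (log2 fold change 8.40 ± 0.63 (SE), adjusted p = 1.5e-06). Its S copy admp.S likewise did not overlap between tissues, at 32.1 and 80.5 CPM in the DMZ against 0.109 and 0.0966 CPM in the caps (log2 fold change 9.02 ± 0.81 (SE), adjusted p = 8.4e-06). Besides chordin, antagonists of BMP included fst.L (follistatin), at 15.0 and 23.0 CPM in the DMZ against 0.218 and 0.515 CPM in the caps (log2 fold change 5.64 ± 0.65 (SE), adjusted p = 7.6e-05), and nog.L (noggin), at 8.82 and 16.9 CPM in the DMZ against 1.52 and 1.09 CPM in the caps (log2 fold change 3.25 ± 0.34 (SE), adjusted p = 1.3e-05). Noggin's caps were low but not at the floor. The gene pkdcc.2.L, which encodes a secreted kinase, was at 32.5 and 35.6 CPM in the DMZ against 1.99 and 0.773 CPM in the caps (log2 fold change 4.62 ± 0.46 (SE), adjusted p = 2.0e-05). Among Wnt antagonists, sfrp1.L was at 6.95 and 8.70 CPM in the DMZ against 0 and 0.0644 CPM in the caps, with 2 counts in the caps together (215-fold, 95% exact interval 58.8 to 1780.4 from counting error, adjusted p = 0.0026). The head organizer's Wnt antagonists dkk1.L, at 0.543 and 7.81 CPM in the DMZ against 0.218 and 0.0966 CPM in the caps, and frzb2.L, at 4.04 and 29.3 CPM in the DMZ against 1.02 and 0.837 CPM in the caps, were highest in DMZ replicate 2 and were not called. By over 1.5 times in fold, the log2 fold change shifted for admp.S (8.18 without DMZ replicate 2), fst.L (6.30 without cap replicate 2), pkdcc.2.L (5.53 without cap replicate 1, 4.01 without cap replicate 2) and sfrp1.L (fitted as 7.69 on the log2 scale, 6.97 without cap replicate 1, no count in the other cap library without cap replicate 2). Of organizer secreted factors models, 0 were lower at an unadjusted p under 0.05 in edgeR and 0 were called lower by DESeq2.

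Transcription factors of the organizer and axial mesoderm followed the secreted factors. In their list 15 of 28 tested models were called higher and 0 lower (median log2 fold change 2.81). In each of the 15 both DMZ libraries lay above both caps, as they did in 1173 of all 1195 higher calls. The forkhead gene foxb1.S was at 27.8 and 38.4 CPM in the DMZ against 0.0725 and 0.0322 CPM in the caps, with 3 counts in the caps together (587-fold, 95% exact interval 200.3 to 2849.5 from counting error, adjusted p = 1.8e-06). The LIM homeobox gene lhx1.L, an activator of organizer genes, was at 31.1 and 68.2 CPM in the DMZ against 0.870 and 1.22 CPM in the caps (log2 fold change 5.53 ± 0.41 (SE), adjusted p = 4.7e-07). The gene not.S, the notochord homeobox gene, was at 137 and 174 CPM in the DMZ against 8.67 and 20.5 CPM in the caps. Its L copy not.L was at 107 and 149 CPM in the DMZ against 19.4 and 54.2 CPM in the caps. The caps thus held readable not transcript, without overlap with the DMZ. For not.S the log2 fold change was 3.40 ± 0.40 (SE), adjusted p = 0.00010. For not.L it was 1.83 ± 0.31 (SE), adjusted p = 0.0016. The gene otx2.L, an anterior homeobox gene, was also present in caps, at 45.9 and 82.4 CPM in the DMZ against 7.83 and 2.77 CPM in the caps (log2 fold change 3.57 ± 0.64 (SE), adjusted p = 0.0043). The gene gsc.L (goosecoid), at 2.27 and 32.1 CPM in the DMZ against 0.109 and 0.0966 CPM in the caps, was called with DMZ libraries far apart (log2 fold change 6.88 ± 0.98 (SE), adjusted p = 0.00046). The call of not.L was lost with only the 4 libraries fitted (adjusted p = 0.051). The call of otx2.L was lost without cap replicate 2 (adjusted p = 0.055) or with only the 4 libraries fitted (adjusted p = 0.29) or with only stages 11 to 12 fitted (adjusted p = 0.054). Log2 fold changes that shifted by over 1.5 times in fold were those of foxb1.S (fitted as 9.21 on the log2 scale, 9.85 without cap replicate 1), lhx1.L (4.88 without DMZ replicate 2), not.S (4.24 without cap replicate 2), not.L (2.67 without cap replicate 2), otx2.L (4.59 without cap replicate 1, 2.91 without cap replicate 2) and gsc.L (7.58 without DMZ replicate 1, 5.48 without DMZ replicate 2, 7.67 without cap replicate 1, 5.53 without cap replicate 2). Of organizer and axial transcription factors models, 0 were lower at an unadjusted p under 0.05 in edgeR and 0 were called lower by DESeq2.

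**Figure D3:**
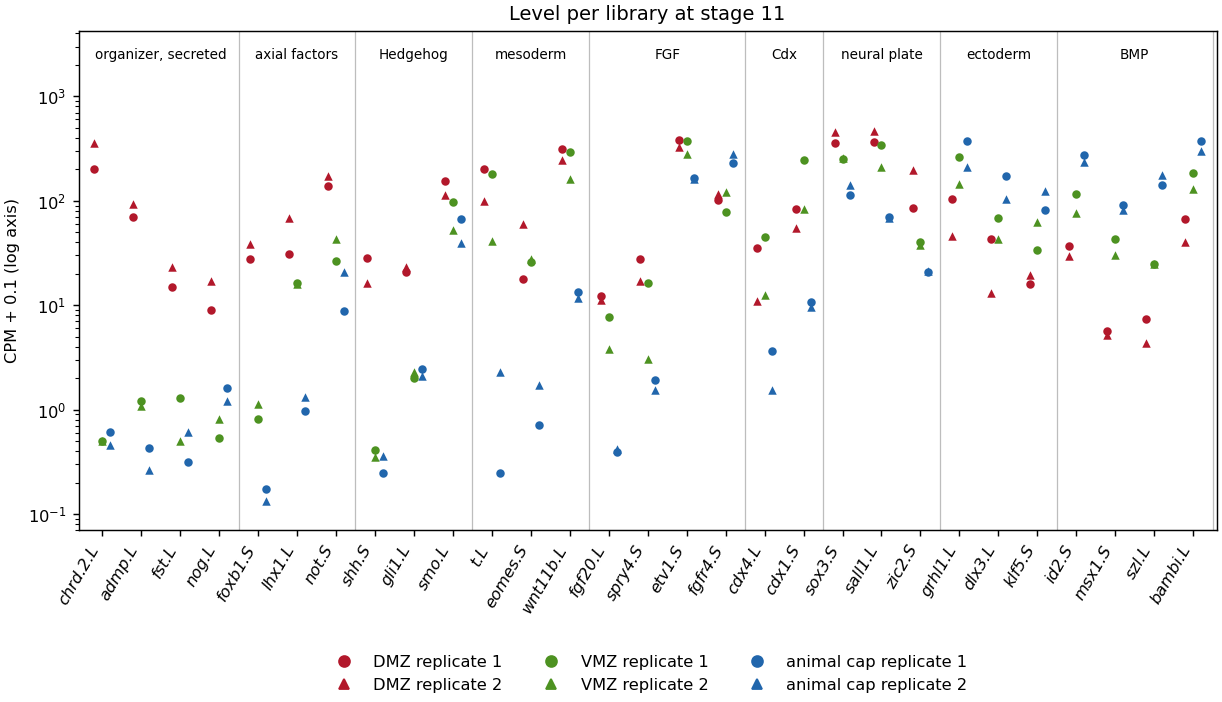
Level of each gene in each stage 11 library as CPM + 0.1 on a log axis, red for DMZ, blue for animal cap and green for VMZ, circles for replicate 1 and triangles for replicate 2, grouped by role. From chrd.2.L to zic2.S the DMZ libraries lie above the caps except for fgfr4.S, and from grhl1.L to bambi.L they lie below them.

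Genes of the Hedgehog pathway were called in 1 direction. In their list 14 of 40 tested models were called higher and 0 lower (median log2 fold change 0.65). The ligand shh.S, which notochord and floor plate secrete, was at 28.3 and 16.3 CPM in the DMZ against 0.145 and 0.258 CPM in the caps, and the VMZ at 0.308 and 0.248 CPM was as low as the caps (log2 fold change 6.73 ± 0.58 (SE), adjusted p = 3.0e-06). Both copies of the transcription factor gli1, a direct target of the pathway, were higher. The gene gli1.L was at 20.9 and 23.3 CPM in the DMZ against 2.36 and 2.00 CPM in the caps. The gene gli1.S was at 33.5 and 28.5 CPM in the DMZ against 2.87 and 3.64 CPM in the caps. For gli1.L the log2 fold change was 3.34 ± 0.44 (SE), adjusted p = 0.00019. For gli1.S it was 3.27 ± 0.38 (SE), adjusted p = 4.1e-05. In neither copy did the groups overlap. The signal transducer smo.L differed less, at 153 and 113 CPM in the DMZ against 66.1 and 39.5 CPM in the caps (log2 fold change 1.35 ± 0.23 (SE), adjusted p = 0.0014). The gene nkx6-2.L (gene50658), a homeobox gene of the ventral neural tube in other vertebrates, was near the floor in the caps, at 14.2 and 15.9 CPM in the DMZ against 0.0725 and 0.129 CPM in the caps (log2 fold change 7.14 ± 0.58 (SE), adjusted p = 1.0e-06). A second model of this name was at 12.4 and 12.5 CPM in the DMZ against 0.145 and 0.0322 CPM in the caps, and reads may be divided between the 2. In the notochord list, which includes several of the genes above, 16 of 31 tested models were called higher and 0 lower (median log2 fold change 2.91). Among them was plod2.L, a collagen-modifying enzyme, at 109 and 20.0 CPM in the DMZ against 1.92 and 1.22 CPM in the caps (log2 fold change 5.13 ± 0.85 (SE), adjusted p = 0.0026). The call of plod2.L was lost without cap replicate 1 (adjusted p = 0.056) or with only the 4 libraries fitted (adjusted p = 0.069). The fitted log2 fold change moved by over 1.5 times in fold for shh.S (7.32 without cap replicate 2) and plod2.L (4.19 without DMZ replicate 1). Of Hedgehog models, 0 were lower at an unadjusted p under 0.05 in edgeR and 0 were called lower by DESeq2. Of notochord models, 2 were lower at an unadjusted p under 0.05 in edgeR and 2 were called lower by DESeq2.

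Several general mesoderm genes were higher as well, and some of them were also high in the VMZ. In the list 18 of 49 tested models were called higher and 0 lower (median log2 fold change 2.83). The gene t.L (brachyury, the T-box factor of early mesoderm) was at 201 and 98.4 CPM in the DMZ against 0.145 and 2.19 CPM in the caps and at 180.3 and 40.7 CPM in the VMZ. The gene eomes.S (eomesodermin) was at 17.8 and 60 CPM in the DMZ against 0.617 and 1.61 CPM in the caps, with 25.6 and 27.8 CPM in the VMZ. The caps of t.L lay apart from each other, yet far below the DMZ. For t.L the log2 fold change was 6.81 ± 0.92 (SE), adjusted p = 0.00054. For eomes.S it was 5.04 ± 0.53 (SE), adjusted p = 2.0e-05. A further T-box model, t2.S (gene1212), was at 132 and 110.2 CPM in the DMZ against 0.399 and 0.708 CPM in the caps (log2 fold change 7.74 ± 0.68 (SE), adjusted p = 9.3e-06). Genes of paraxial mesoderm were also higher. The gene dmrt2.L, a Dmrt factor of somites, was at 3.80 and 5.63 CPM in the DMZ against 0.326 and 0.580 CPM in the caps (log2 fold change 3.30 ± 0.51 (SE), adjusted p = 0.00067). The gene hes7.2.L, a Hes factor of the unsegmented mesoderm, was at 20.7 and 13.2 CPM in the DMZ against 1.96 and 1.38 CPM in the caps (log2 fold change 3.35 ± 0.53 (SE), adjusted p = 0.00098). The myogenic gene myf5.S had 1 count in the 2 caps together and stood at 6.17 and 12.7 CPM in the DMZ (442-fold, 95% exact interval 78.6 to 17505 from counting error, adjusted p = 0.0033). Of structural muscle genes, 0 of 33 tested models were called higher and 0 lower (median log2 fold change 0.73). In bulk tissue, fewer cells of a type and less RNA per cell cannot be told apart. The call of t.L was lost with only the 4 libraries fitted (adjusted p = 0.37). The call of myf5.S was lost without cap replicate 2 (adjusted p = 0.059) or with only stages 11 to 12 fitted (adjusted p = 0.072). A left-out library moved the log2 fold change by over 1.5 times in fold for t.L (5.75 without cap replicate 1, 10.18 without cap replicate 2), dmrt2.L (3.88 without DMZ replicate 1, 2.66 without DMZ replicate 2, 2.70 without cap replicate 1, 4.12 without cap replicate 2) and myf5.S (fitted as 8.73 on the log2 scale, no count in the other cap library without cap replicate 1, 7.66 without cap replicate 2). For the T-box and paraxial mesoderm list, the count of higher calls was 11 without cap replicate 2. Of T-box and paraxial mesoderm models, 2 were lower at an unadjusted p under 0.05 in edgeR and 2 were called lower by DESeq2. Of muscle and somite structural models, 5 were higher at an unadjusted p under 0.05 in edgeR and 2 were called higher by DESeq2. Of muscle and somite structural models, 1 were lower at an unadjusted p under 0.05 in edgeR and 0 were called lower by DESeq2.

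Nodal signalling, the inducer of mesoderm and endoderm, was called in selected members. In its list 6 of 48 tested models were called higher and 4 lower (median log2 fold change 0.09). The 6 higher ones were ligands, co-receptors and a feedback antagonist, and the 4 lower ones were intracellular. The ligand nodal.L was at 23.4 and 12.2 CPM in the DMZ against 1.02 and 1.90 CPM in the caps. The gene gdf3.S, a further ligand of the TGF-beta family, was at 119.9 and 103 CPM in the DMZ against 2.28 and 2.71 CPM in the caps, and the antagonist lefty.S at 18.6 and 16.6 CPM in the DMZ against 0 and 0.258 CPM in the caps. In none of these 3 did the groups overlap (log2 fold change 3.62 ± 0.58 (SE), adjusted p = 0.0011 for nodal.L, log2 fold change 5.5 ± 0.74 (SE), adjusted p = 0.00050 for gdf3.S, and log2 fold change 6.96 ± 0.94 (SE), adjusted p = 0.00034 for lefty.S). In the VMZ nodal.L was at 0.584 and 0.630 CPM, below both caps, and gdf3.S at 166 and 39.2 CPM. The co-receptor tdgf1.1.L was at 24 and 40.2 CPM in the DMZ against 5.4 and 4.89 CPM in the caps (log2 fold change 2.54 ± 0.42 (SE), adjusted p = 0.0014). The gene foxh1.L, the cofactor of Smad2, was lower, at 57.7 and 48.8 CPM in the DMZ against 107 and 107 CPM in the caps, as was the repressor skil.S, at 43.1 and 49.8 CPM in the DMZ against 113 and 90.2 CPM in the caps. For foxh1.L the log2 fold change was -1.0 ± 0.22 (SE), adjusted p = 0.011. For skil.S it was -1.15 ± 0.22 (SE), adjusted p = 0.0037. The call of foxh1.L was lost without DMZ replicate 2 or cap replicate 1 (adjusted p = 0.13 and 0.092). The call of skil.S was lost without cap replicate 1 (adjusted p = 0.093). By over 1.5 times in fold, the log2 fold change shifted for nodal.L (3.00 without DMZ replicate 1) and lefty.S (5.91 without cap replicate 1, no count in the other cap library without cap replicate 2). Among Nodal and TGF-beta signalling models, lower calls numbered 2 without DMZ replicate 1, 2 without DMZ replicate 2, 1 without cap replicate 1, 8 with only the 4 libraries fitted and 7 by DESeq2.

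Endoderm and Mix/Bix genes were called higher in part. In the list 10 of 39 tested models were called higher and 0 lower (median log2 fold change 1.76). With 0.5 CPM added, the median log2 difference of DMZ over cap was 0.01 in pair 1 and 1.58 in pair 2. Within the DMZ the median log2 ratio of replicate 2 over replicate 1 was 1.37, and within the caps it was 0.39. The gene bix1.3.L, a homeobox gene of the vegetal mesendoderm, was at 9.66 and 27.4 CPM in the DMZ against 0.508 and 0.837 CPM in the caps (log2 fold change 4.67 ± 0.99 (SE), adjusted p = 0.011). The endoderm genes mixer.L and gata6.L were higher in DMZ replicate 2 than in DMZ replicate 1 and were not called. For mixer.L the levels were 2.41 and 23.9 CPM in the DMZ against 0.617 and 1.35 CPM in the caps, with 119 and 42.9 CPM in the VMZ, and for gata6.L 0.882 and 12.5 CPM in the DMZ against 1.02 and 1.48 CPM in the caps. The call of bix1.3.L was lost without DMZ replicate 2 or cap replicate 1 or cap replicate 2 (adjusted p = 0.051, 0.098 and 0.13) or with only stages 11 to 12 fitted (adjusted p = 0.18). Higher endoderm and Mix/Bix calls numbered 3 without DMZ replicate 2, 3 without cap replicate 1, 3 without cap replicate 2, 5 without the replicate block and 2 with only stages 11 to 12 fitted. Of endoderm and Mix/Bix models, 4 were lower at an unadjusted p under 0.05 in edgeR and 1 were called lower by DESeq2.

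FGF signalling, which sustains mesoderm around the blastopore, had ligands, receptors, inhibitors and targets among its calls. In its list 28 of 52 tested models were called higher and 2 lower (median log2 fold change 1.18). The ligand fgf20.L was at 12.1 and 11.0 CPM in the DMZ against 0.290 and 0.322 CPM in the caps. The ligand fgf8.L was at 53.3 and 48.6 CPM in the DMZ against 1.45 and 1.93 CPM in the caps, and neither overlapped between tissues. In the VMZ fgf20.L was at 7.57 and 3.74 CPM and fgf8.L at 26.6 and 16.3 CPM. For fgf20.L the log2 fold change was 5.22 ± 0.53 (SE), adjusted p = 9.3e-06. For fgf8.L it was 4.91 ± 0.29 (SE), adjusted p = 1.7e-08. Inhibitors that the pathway induces in its own feedback followed. The gene spry4.S (Sprouty) was at 27.7 and 16.8 CPM in the DMZ against 1.81 and 1.45 CPM in the caps. The gene spred1.L, its relative, was at 35.4 and 31.2 CPM in the DMZ against 2.61 and 3.25 CPM in the caps, and the MAP kinase phosphatase dusp6.L at 49.5 and 44.4 CPM in the DMZ against 15.6 and 13.4 CPM in the caps. Each of these had both DMZ libraries well above both caps (log2 fold change 3.73 ± 0.47 (SE), adjusted p = 0.00015 for spry4.S, log2 fold change 3.49 ± 0.26 (SE), adjusted p = 3.6e-07 for spred1.L, and log2 fold change 1.70 ± 0.23 (SE), adjusted p = 0.00018 for dusp6.L). The phosphatase dusp1.S was at 45.4 and 41.9 CPM in the DMZ against 6.35 and 4.54 CPM in the caps (log2 fold change 3.00 ± 0.21 (SE), adjusted p = 2.2e-07). This phosphatase was also the 1 model called higher in the immediate early and stress list. The ETS factor etv1.S, a target of the pathway, was present in both tissues, at 378 and 329 CPM in the DMZ against 164 and 163 CPM in the caps, as was the membrane inhibitor il17rd.S, at 372 and 406 CPM in the DMZ against 183 and 149.6 CPM in the caps. Both differences exceeded the spread. For etv1.S the log2 fold change was 1.11 ± 0.12 (SE), adjusted p = 1.7e-05. For il17rd.S it was 1.22 ± 0.19 (SE), adjusted p = 0.00051. The copy etv1.L was at 321 and 277 CPM in the DMZ, 170 and 145 CPM in the caps and 325 and 204 CPM in the VMZ. The receptors were called in both directions. The gene fgfr1.L was higher in the DMZ, at 89.0 and 65.7 CPM in the DMZ against 35.3 and 29.1 CPM in the caps (log2 fold change 1.27 ± 0.18 (SE), adjusted p = 0.00027). The gene fgfr4.S was lower, at 100.5 and 116 CPM in the DMZ against 232 and 278 CPM in the caps (log2 fold change -1.23 ± 0.14 (SE), adjusted p = 3.4e-05). Neither fgfr2.S, at 16.9 and 22.5 CPM in the DMZ against 16.6 and 22.8 CPM in the caps, nor fgfr3.L, at 2.68 and 4.1 CPM in the DMZ against 3.95 and 2.71 CPM in the caps, was called. The adaptor frs2.L, which links the receptors to the MAP kinase pathway, was at 60.6 and 56.8 CPM in the DMZ against 52.9 and 49.9 CPM in the caps, without a call. In the FGF signalling list, lower calls numbered 1 without DMZ replicate 2, 1 without cap replicate 2 and 1 with only stages 11 to 12 fitted.

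BMP signalling, which drives epidermal and ventral fate, had few calls, more of them lower than higher. In the list 2 of 57 tested models were called higher and 6 lower (median log2 fold change -0.77), while both caps lay above both DMZ libraries for 34 of the 57 (17.7% over all models). Models without overlap outnumbered the lower calls over all tested models too, 5549 against 497. The gene id2.S, an Id gene induced by BMP, was at 36.8 and 29.4 CPM in the DMZ against 272 and 236 CPM in the caps (log2 fold change -2.94 ± 0.67 (SE), adjusted p = 0.020). The gene id4.S (gene14705), a relative of it, was at 3.73 and 3.33 CPM in the DMZ against 12.9 and 11.3 CPM in the caps (log2 fold change -1.83 ± 0.30 (SE), adjusted p = 0.00098). A second model named id4.S (gene47342) was at 1.70 and 0.384 CPM in the DMZ against 7.62 and 17.1 CPM in the caps (log2 fold change -3.37 ± 0.76 (SE), adjusted p = 0.016, edgeR). Its call was lost without DMZ replicate 1, DMZ replicate 2 or cap replicate 2, and with only the 4 libraries fitted (adjusted p = 0.20, edgeR). Its log2 fold change was from -4.98 to -2.55 with 1 library left out. Several genes with large folds were not called. The secreted inhibitor sizzled, szl.L, was at 7.19 and 4.22 CPM in the DMZ against 141 and 178 CPM in the caps (log2 fold change -4.84 ± 1.63 (SE), adjusted p = 0.13). The homeobox gene msx1.S was at 5.56 and 5.12 CPM in the DMZ against 90.4 and 80.6 CPM in the caps (log2 fold change -4.08 ± 1.36 (SE), adjusted p = 0.12), and the pseudoreceptor bambi.L at 66.7 and 40.3 CPM in the DMZ against 374 and 299 CPM in the caps (log2 fold change -2.67 ± 0.87 (SE), adjusted p = 0.11). In each of these 3 both caps lay well above both DMZ libraries. With only the 4 libraries fitted, their adjusted p was 0.0021, 5.8e-07 and 8.2e-06 (edgeR), from a fit with too few degrees of freedom to stand by itself. The spread behind the main p comes from all 12 groups, and there the log2 ratio of replicate 2 over replicate 1 was from -4.30 to 3.15 for szl.L, from -4.15 to 2.38 for msx1.S and from -2.90 to 1.95 for bambi.L. For fgfr4.S it was from -0.07 to 0.63, and for spry2.L from -1.16 to 0.28. These genes were picked with their results known and do not stand for their lists. The FGF list member flrt3.L differed more between replicates, at 16.5 and 59.1 CPM in the DMZ and 128.8 and 45.6 CPM in the VMZ. The part of that spread in each call was not tested. The ligands bmp4.S, at 53.8 and 37.5 CPM in the DMZ against 112 and 84.3 CPM in the caps, and bmp7.2.L, at 394 and 301 CPM in the DMZ against 804 and 667 CPM in the caps, were not called. The gene hes1.L, placed in this list and known as a Notch target, was called higher, at 27.1 and 34.4 CPM in the DMZ against 5.91 and 12.3 CPM in the caps (log2 fold change 1.78 ± 0.24 (SE), adjusted p = 0.00020). The call of id2.S was lost without any 1 of the 4 libraries (adjusted p = 0.064 to 0.13). The call of id4.S (gene14705) was lost without DMZ replicate 1 (adjusted p = 0.052). For the BMP signalling and targets list, the count of higher calls was 1 without DMZ replicate 2, 1 without cap replicate 1, 1 without cap replicate 2 and 5 with only the 4 libraries fitted. Among BMP signalling and targets models, lower calls numbered 2 without DMZ replicate 1, 1 without DMZ replicate 2, 3 without cap replicate 1, 1 without cap replicate 2, 26 with only the 4 libraries fitted, 11 with only stages 11 to 12 fitted and 20 by DESeq2.

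**Figure D4:**
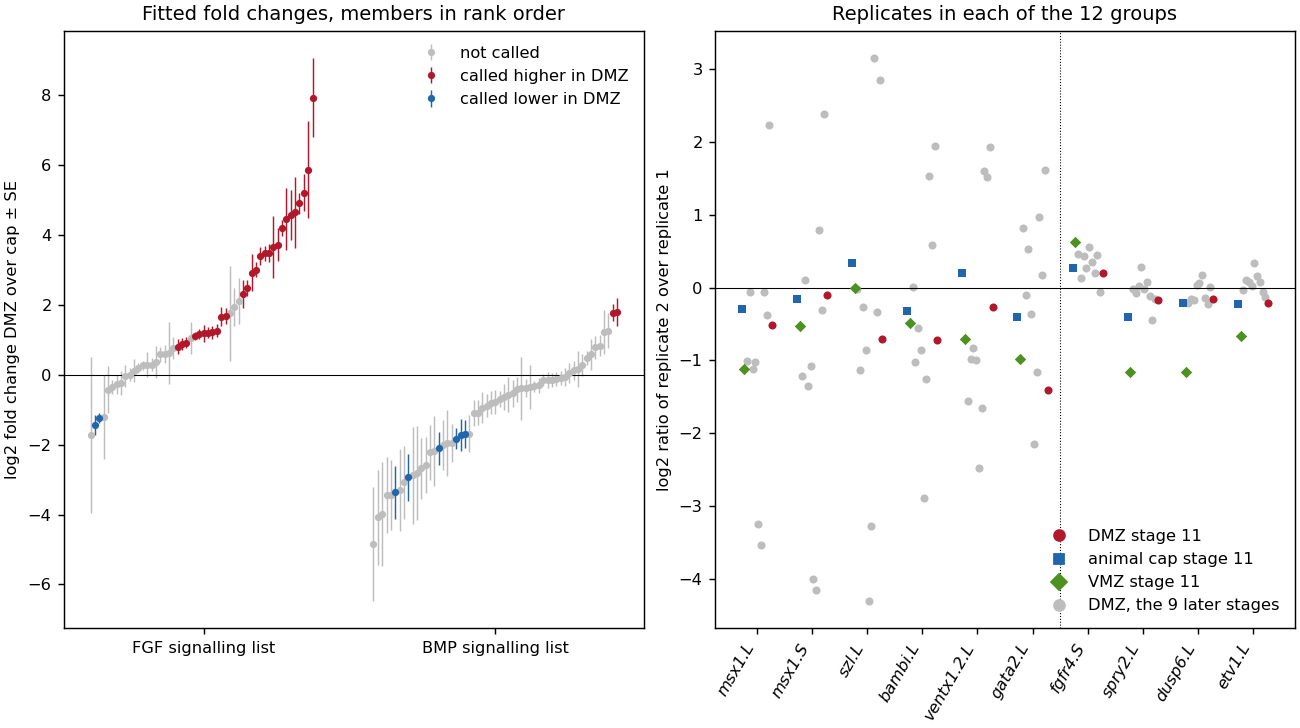
Left, fitted log2 fold change of DMZ over cap with its SE for each tested model of the FGF and BMP lists in rank order, red where called higher, blue where called lower and grey where not called; right, log2 ratio of replicate 2 over replicate 1 for 10 genes in each of the 12 groups. The genes left of the dotted line, none of them called, spread from -4.30 to 3.15 between replicates. The FGF genes right of it lie between -1.16 and 0.63. The 10 genes were picked with their results known and do not stand for their lists.

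Several transcription factors of non-neural ectoderm were lower in the DMZ. In their list 4 of 62 tested models were called higher and 14 lower (median log2 fold change -1.77). Both caps lay above both DMZ libraries for 43 of the 62 (17.7% over all models). The gene grhl1.L (grainyhead-like, an activator of epidermal genes) was at 105 and 45.4 CPM in the DMZ against 373 and 209 CPM in the caps, with the VMZ at 261 and 144 CPM. The gene klf5.S, a Krüppel-like factor of epithelia, was at 15.7 and 19.5 CPM in the DMZ against 80.9 and 123 CPM in the caps. Neither pair of groups overlapped, and both calls held without each library. For grhl1.L the log2 fold change was -1.97 ± 0.32 (SE), adjusted p = 0.0013. For klf5.S it was -2.49 ± 0.36 (SE), adjusted p = 0.00038. Another Krüppel-like factor, klf4.L (gene3847), was at 51.8 and 48.6 CPM in the DMZ against 192 and 183 CPM in the caps (log2 fold change -1.90 ± 0.21 (SE), adjusted p = 2.4e-05). The gene dlx3.L, a homeobox gene of epidermis, was at 43.0 and 12.9 CPM in the DMZ against 171 and 105 CPM in the caps, and its DMZ libraries were far apart (log2 fold change -2.30 ± 0.41 (SE), adjusted p = 0.0030). The gene eya1.S, a placode cofactor, was at 1.25 and 3.07 CPM in the DMZ against 9.68 and 13.2 CPM in the caps (log2 fold change -2.55 ± 0.40 (SE), adjusted p = 0.00067). The GATA factors gata2.L, at 139 and 52.4 CPM in the DMZ against 766 and 579 CPM in the caps, and gata3.L, at 12.0 and 2.82 CPM in the DMZ against 90.3 and 70.9 CPM in the caps, and the forkhead gene foxi4.1.L, at 11.5 and 6.66 CPM in the DMZ against 122 and 81.5 CPM in the caps, were several times higher in the caps without a call. Their adjusted p was 0.051 for gata2.L, 0.14 for gata3.L and 0.057 for foxi4.1.L (edgeR). Log2 fold changes that shifted by over 1.5 times in fold were those of dlx3.L (-3.31 without DMZ replicate 1). Higher non-neural ectoderm transcription factors calls numbered 2 without cap replicate 1 and 2 without cap replicate 2. In the non-neural ectoderm transcription factors list, lower calls numbered 8 without DMZ replicate 2, 36 with only the 4 libraries fitted and 28 by DESeq2.

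Among Wnt ligands and receptors the calls were higher in the DMZ with 1 exception. In their list 13 of 54 tested models were called higher and 1 lower (median log2 fold change 0.29). The non-canonical ligand wnt5b.L was at 79.7 and 46.3 CPM in the DMZ against 13.8 and 8.66 CPM in the caps, with 81.4 and 40.5 CPM in the VMZ. Its copy wnt5b.S was at 78.2 and 38.8 CPM in the DMZ against 20.1 and 13.4 CPM in the caps. Both exceeded the spread. For wnt5b.L the log2 fold change was 2.48 ± 0.19 (SE), adjusted p = 5.0e-07. For wnt5b.S it was 1.77 ± 0.17 (SE), adjusted p = 5.6e-06. The Frizzled receptors fzd10.L, at 43.1 and 28.8 CPM in the DMZ against 9.79 and 7.21 CPM in the caps, and fzd2.S, at 38.2 and 35.5 CPM in the DMZ against 13.0 and 18.2 CPM in the caps, were higher. For fzd10.L the log2 fold change was 2.07 ± 0.15 (SE), adjusted p = 2.0e-07. For fzd2.S it was 1.25 ± 0.16 (SE), adjusted p = 0.00012. The gene fzd6.L was the exception and lower, at 22.2 and 8.06 CPM in the DMZ against 64.7 and 40.9 CPM in the caps (log2 fold change -1.78 ± 0.44 (SE), adjusted p = 0.027). The co-receptor ror2.S, which binds Wnt5 ligands, was at 112 and 67.7 CPM in the DMZ against 19.3 and 6.18 CPM in the caps (log2 fold change 2.88 ± 0.62 (SE), adjusted p = 0.014). Of targets of canonical Wnt signalling, sp5l.S was at 228 and 213 CPM in the DMZ against 12.6 and 16.1 CPM in the caps. The gene sp5l.L was at 341 and 329.6 CPM in the DMZ against 30.1 and 29.1 CPM in the caps, and neither overlapped. Both were also high in the VMZ, sp5l.S at 197 and 179 CPM and sp5l.L at 265 and 234 CPM. For sp5l.S the log2 fold change was 3.94 ± 0.21 (SE), adjusted p = 1.1e-08. For sp5l.L it was 3.50 ± 0.20 (SE), adjusted p = 1.4e-08. The pathway inhibitor axin1.L, at 17.8 and 11.1 CPM in the DMZ against 14.1 and 10.9 CPM in the caps, and the Tcf repressor tcf7l1.L, at 178 and 211 CPM in the DMZ against 181 and 172 CPM in the caps, were not called. In the list of Wnt inhibitors and response genes 5 of 50 tested models were called higher and 0 lower (median log2 fold change 0.26). The gene wnt8a.L, the ligand of ventral and lateral mesoderm, was at 0.916 and 1.41 CPM in the DMZ against 0.943 and 0.676 CPM in the caps, and at 113 and 34.9 CPM in the VMZ. The call of fzd6.L was lost without DMZ replicate 2 or cap replicate 1 or cap replicate 2 (adjusted p = 0.18, 0.17 and 0.056) or without the replicate block (adjusted p = 0.053). The call of ror2.S was lost without DMZ replicate 1 or cap replicate 2 (adjusted p = 0.080 and 0.14) or with only stages 11 to 12 fitted (adjusted p = 0.10). The fitted log2 fold change moved by over 1.5 times in fold for fzd6.L (-2.59 without DMZ replicate 1) and ror2.S (3.64 without cap replicate 1). For the Wnt ligands and Frizzled receptors list, the count of higher calls was 8 without cap replicate 2. Among Wnt ligands and Frizzled receptors models, lower calls numbered 0 without DMZ replicate 2, 0 without cap replicate 1, 0 without the replicate block, 2 with only the 4 libraries fitted and 2 by DESeq2. Higher Wnt inhibitors and response genes calls numbered 3 without the replicate block, 8 with only the 4 libraries fitted and 11 by DESeq2. Of Wnt inhibitors and response genes models, 3 were lower at an unadjusted p under 0.05 in edgeR and 2 were called lower by DESeq2.

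Planar cell polarity genes, the pathway that orients cells in convergent extension, were called in selected members. In the list 10 of 51 tested models were called higher and 4 lower (median log2 fold change 0.08). The gene prickle1.S, a LIM protein of the core pathway, was at 189 and 155 CPM in the DMZ against 13.7 and 13.1 CPM in the caps (log2 fold change 3.68 ± 0.28 (SE), adjusted p = 5.1e-07). The membrane protein vangl2.L was at 256 and 176 CPM in the DMZ against 127 and 106 CPM in the caps (log2 fold change 0.88 ± 0.14 (SE), adjusted p = 0.00094), while its copy vangl2.S, at 77.7 and 90.9 CPM in the DMZ against 70.3 and 79.4 CPM in the caps, was not called. The gene dvl3.L, a Dishevelled, was lower, at 29.4 and 32.1 CPM in the DMZ against 76.5 and 99.9 CPM in the caps (log2 fold change -1.50 ± 0.27 (SE), adjusted p = 0.0024). The cadherin celsr2.L, at 188 and 178 CPM in the DMZ against 182 and 162 CPM in the caps, was not called. In the planar cell polarity list, lower calls numbered 2 without DMZ replicate 1, 1 without DMZ replicate 2, 1 without cap replicate 1 and 2 without the replicate block.

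Several posterior genes were higher in the DMZ. In the Cdx and Hox list 11 of 58 tested models were called higher and 2 lower (median log2 fold change 0.56). The caudal genes cdx4.L, at 35.0 and 10.9 CPM in the DMZ against 3.52 and 1.45 CPM in the caps, and cdx1.S, at 84.1 and 54.3 CPM in the DMZ against 10.7 and 9.4 CPM in the caps, were higher in the DMZ, with VMZ levels of 45.1 and 12.3 CPM for cdx4.L and 247 and 83.4 CPM for cdx1.S. For cdx4.L the log2 fold change was 3.16 ± 0.32 (SE), adjusted p = 1.0e-05. For cdx1.S it was 2.74 ± 0.31 (SE), adjusted p = 4.0e-05. Of the Hox genes, which pattern the axis from head to tail, hoxb3.S was at 5.15 and 3.46 CPM in the DMZ against 0.145 and 0.225 CPM in the caps. The gene hoxd1.S was at 6.27 and 3.33 CPM in the DMZ against 0.0363 and 0.193 CPM in the caps, and both lay above the caps in each library. For hoxb3.S the log2 fold change was 4.45 ± 0.55 (SE), adjusted p = 7.8e-05. For hoxd1.S it was 5.29 ± 0.84 (SE), adjusted p = 0.0012. No count of hoxb4.S or hoxb6.S was found in either cap. Against 3 counts over both caps, hoxb4.S, at 1.59 and 1.79 CPM in the DMZ, was at least 32.0-fold higher, and hoxb6.S, at 1.76 and 1.28 CPM, at least 32.5-fold. In the retinoic acid list 4 of 38 tested models were called higher and 0 lower (median log2 fold change 0.35), among them the degrading enzyme cyp26c1.S, at 4.37 and 7.94 CPM in the DMZ against 0.798 and 0.580 CPM in the caps (log2 fold change 3.08 ± 0.69 (SE), adjusted p = 0.018), and the synthesising enzyme aldh1a2.L, at 51.4 and 132 CPM in the DMZ against 12.8 and 11.4 CPM in the caps (log2 fold change 2.83 ± 0.62 (SE), adjusted p = 0.016). The call of cyp26c1.S was lost without DMZ replicate 2 or cap replicate 1 or cap replicate 2 (adjusted p = 0.080, 0.091 and 0.16) or with only stages 11 to 12 fitted (adjusted p = 0.092). The call of aldh1a2.L was lost without DMZ replicate 2 or cap replicate 1 or cap replicate 2 (adjusted p = 0.10, 0.087 and 0.15) or with only the 4 libraries fitted (adjusted p = 0.14) or with only stages 11 to 12 fitted (adjusted p = 0.18). A left-out library moved the log2 fold change by over 1.5 times in fold for hoxb3.S (3.85 without cap replicate 1, 5.16 without cap replicate 2), hoxd1.S (4.47 without cap replicate 1, 7.06 without cap replicate 2) and aldh1a2.L (2.18 without DMZ replicate 2). For the Cdx and Hox list, the count of lower calls was 0 without DMZ replicate 1, 0 without the replicate block, 1 with only the 4 libraries fitted, 0 with only stages 11 to 12 fitted and 4 by DESeq2. Among retinoic acid models, higher calls numbered 2 without DMZ replicate 2, 2 without cap replicate 1, 1 without cap replicate 2, 2 with only stages 11 to 12 fitted and 7 by DESeq2. Of retinoic acid models, 0 were lower at an unadjusted p under 0.05 in edgeR and 0 were called lower by DESeq2.

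Part of the neural plate genes were higher in the DMZ explants, which include dorsal ectoderm. In their list 37 of 75 tested models were called higher and 0 lower (median log2 fold change 1.67), and both DMZ libraries lay above both caps for 50 of the 75 (17.1% over all models). The gene sox2.L (gene45195), an SRY-box factor of neural progenitors, was at 167 and 203 CPM in the DMZ against 36.3 and 25.1 CPM in the caps (log2 fold change 2.57 ± 0.27 (SE), adjusted p = 2.1e-05), and a second model of that name at 25.0 and 49.9 CPM in the DMZ against 7.65 and 4.86 CPM in the caps. The gene sox3.S was readable in the caps too, at 357 and 453 CPM in the DMZ against 114 and 140.2 CPM in the caps (log2 fold change 1.67 ± 0.24 (SE), adjusted p = 0.00046). The gene zic2.S, a zinc finger factor of the neural plate, was at 84.3 and 199 CPM in the DMZ against 20.8 and 21.1 CPM in the caps (log2 fold change 2.67 ± 0.26 (SE), adjusted p = 6.7e-06). The gene sall1.L, a spalt-like zinc finger gene, was at 367 and 463 CPM in the DMZ against 69.6 and 67.5 CPM in the caps (log2 fold change 2.61 ± 0.19 (SE), adjusted p = 3.2e-07). The caps lay below the DMZ in every library of these genes. The gene gmnn.L (geminin), which holds cells in an early neural state, was at 67.9 and 77.2 CPM in the DMZ against 19.0 and 18.3 CPM in the caps (log2 fold change 1.96 ± 0.22 (SE), adjusted p = 2.6e-05). The proneural gene neurog2.S was at 5.15 and 3.71 CPM in the DMZ against 0.653 and 0.676 CPM in the caps (log2 fold change 2.73 ± 0.33 (SE), adjusted p = 5.6e-05). Genes of the eye field and forebrain such as rax.L, at 1.76 and 1.41 CPM in the DMZ against 2.28 and 1.32 CPM in the caps, and six3.S, at 1.19 and 1.79 CPM in the DMZ against 4.32 and 1.29 CPM in the caps, were not called. Of neural plate models, 0 were lower at an unadjusted p under 0.05 in edgeR and 0 were called lower by DESeq2.

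Genes of the neural border were called in both directions. In the neural border and crest list 9 of 53 tested models were called higher and 7 lower (median log2 fold change -0.11). The gene foxd3.L, a crest specifier that is also expressed in the organizer, was at 32.7 and 86.2 CPM in the DMZ against 0.290 and 0.161 CPM in the caps. The gene snai1.L, a repressor of epithelial genes in mesoderm and crest, was at 50.4 and 63.7 CPM in the DMZ against 4.13 and 2.09 CPM in the caps. For foxd3.L the log2 fold change was 7.95 ± 0.58 (SE), adjusted p = 4.0e-07. For snai1.L it was 4.21 ± 0.44 (SE), adjusted p = 2.3e-05. The 7 lower calls were models of dlx3, dlx5, tfap2a, klf4, sox8 and hes4, among them the homeobox gene dlx5.S, at 63.1 and 39.3 CPM in the DMZ against 162 and 163 CPM in the caps (log2 fold change -1.65 ± 0.36 (SE), adjusted p = 0.011). The crest genes snai2.L, at 1.36 and 1.54 CPM in the DMZ against 1.49 and 1.35 CPM in the caps, and sox9.L, at 1.36 and 1.79 CPM in the DMZ against 1.81 and 2.67 CPM in the caps, were not called. In the Notch list 9 of 48 tested models were called higher and 2 lower (median log2 fold change 0.16). The 9 called higher were Hes factors, repressors many of which Notch induces, except the ligand jag2.L. The gene hes6.1.L was at 44.5 and 38.7 CPM in the DMZ against 13.2 and 14.5 CPM in the caps (log2 fold change 1.57 ± 0.24 (SE), adjusted p = 0.00049), whereas hes4.L (gene19742) was lower, at 39.7 and 53.6 CPM in the DMZ against 113 and 119 CPM in the caps (log2 fold change -1.32 ± 0.27 (SE), adjusted p = 0.0063). The ligand dll1.L, at 47.6 and 44.0 CPM in the DMZ against 33.4 and 53.5 CPM in the caps, and the receptor notch1.S, at 292 and 201 CPM in the DMZ against 217 and 198 CPM in the caps, were not called. The call of dlx5.S was lost without DMZ replicate 2 or cap replicate 1 (adjusted p = 0.13 and 0.070). The call of hes4.L (gene19742) was lost without DMZ replicate 1 (adjusted p = 0.12). By over 1.5 times in fold, the log2 fold change shifted for foxd3.L (7.34 without DMZ replicate 2, 8.63 without cap replicate 1, 7.32 without cap replicate 2). Lower neural border and crest calls numbered 4 without DMZ replicate 1, 3 without DMZ replicate 2, 3 without cap replicate 1, 16 with only the 4 libraries fitted and 12 by DESeq2. In the Notch list, higher calls numbered 4 without cap replicate 1. For the Notch list, the count of lower calls was 0 without DMZ replicate 1, 1 without DMZ replicate 2, 1 without cap replicate 1, 1 without cap replicate 2, 1 without the replicate block and 1 with only stages 11 to 12 fitted.

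Keratins and desmosome genes were called mostly lower, and junction genes in both directions. In the list of keratins and desmosomes 1 of 36 tested models were called higher and 6 lower (median log2 fold change -0.52). The gene pkp3.S (plakophilin), a desmosome protein, was at 8.14 and 7.04 CPM in the DMZ against 28.1 and 46.7 CPM in the caps (log2 fold change -2.38 ± 0.41 (SE), adjusted p = 0.0019). The embryonic keratin krt5.7.L was at 836 and 269 CPM in the DMZ against 2458 and 1296 CPM in the caps, and within each tissue replicate 1 exceeded replicate 2 (log2 fold change -1.83 ± 0.39 (SE), adjusted p = 0.014). The keratin krt8.L, at 628 and 512 CPM in the DMZ against 741 and 662 CPM in the caps, and dsp.S (desmoplakin), at 481 and 344 CPM in the DMZ against 645 and 452 CPM in the caps, were not called. In the list of tight junctions and epithelial surface 5 of 58 tested models were called higher and 3 lower (median log2 fold change -0.13). The gene cldn4.L (claudin) was lower, at 405 and 319 CPM in the DMZ against 774 and 616 CPM in the caps (log2 fold change -0.94 ± 0.12 (SE), adjusted p = 0.00011), while epcam.S, at 1208 and 849 CPM in the DMZ against 1337 and 1024 CPM in the caps, and ocln.L (occludin), at 248 and 286 CPM in the DMZ against 279.7 and 289 CPM in the caps, were not called. For multiciliated cells, ionocytes and goblet cells 0 of 46 tested models were called higher and 2 lower (median log2 fold change -0.58). The regulator of multiciliated cells gmnc.L, at 3.53 and 1.02 CPM in the DMZ against 15.9 and 25.0 CPM in the caps, was higher in both caps without a call. The call of krt5.7.L was lost without DMZ replicate 2 or cap replicate 1 (adjusted p = 0.10 and 0.11) or without the replicate block (adjusted p = 0.086). The call of cldn4.L was lost without the replicate block (adjusted p = 0.062). Log2 fold changes that shifted by over 1.5 times in fold were those of pkp3.S (-1.67 without cap replicate 2) and krt5.7.L (-2.50 without DMZ replicate 1). Among keratins and desmosomes models, higher calls numbered 0 without DMZ replicate 2, 0 without cap replicate 1 and 0 with only stages 11 to 12 fitted. Lower keratins and desmosomes calls numbered 1 without DMZ replicate 2, 1 without cap replicate 1, 1 without the replicate block and 12 with only the 4 libraries fitted. In the tight junctions and epithelial surface list, higher calls numbered 1 without DMZ replicate 1, 3 without DMZ replicate 2, 2 without cap replicate 1, 1 without cap replicate 2, 3 without the replicate block and 3 with only the 4 libraries fitted. For the tight junctions and epithelial surface list, the count of lower calls was 1 without DMZ replicate 1, 1 without cap replicate 1, 1 without the replicate block and 5 with only the 4 libraries fitted. Of multiciliated, ionocyte and goblet cells models, 3 were higher at an unadjusted p under 0.05 in edgeR and 1 were called higher by DESeq2. Among multiciliated, ionocyte and goblet cells models, lower calls numbered 1 without DMZ replicate 1, 1 without DMZ replicate 2, 0 without cap replicate 1, 0 without cap replicate 2, 0 without the replicate block, 8 with only the 4 libraries fitted, 1 with only stages 11 to 12 fitted and 4 by DESeq2.

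Adhesion and guidance genes were called in selected members. In the cadherin list 6 of 37 tested models were called higher and 2 lower (median log2 fold change -0.02). E-cadherin, cdh1.S, was lower, at 229 and 143 CPM in the DMZ against 437 and 255 CPM in the caps (log2 fold change -0.89 ± 0.19 (SE), adjusted p = 0.010), and N-cadherin, cdh2.L, higher, at 37.0 and 13.4 CPM in the DMZ against 7.83 and 4.89 CPM in the caps (log2 fold change 1.90 ± 0.45 (SE), adjusted p = 0.022). C-cadherin, cdh3.L, at 1019 and 875 CPM in the DMZ against 875 and 792 CPM in the caps, and ctnnb1.L (beta-catenin), at 2361 and 2033 CPM in the DMZ against 1972 and 1808 CPM in the caps, were not called. Among ephrins, Eph receptors and guidance genes 16 of 73 tested models were called higher and 4 lower (median log2 fold change 0.10). The receptors, which steer cells apart on contact, included epha4.L (gene18257), at 279 and 242 CPM in the DMZ against 49.9 and 37.0 CPM in the caps, and epha2.L, at 267 and 246 CPM in the DMZ against 92.4 and 68.5 CPM in the caps. For epha4.L the log2 fold change was 2.59 ± 0.25 (SE), adjusted p = 6.6e-06. For epha2.L it was 1.69 ± 0.13 (SE), adjusted p = 4.7e-07. The guidance gene sema6d.L, a semaphorin, was at 76.4 and 85.8 CPM in the DMZ against 24.8 and 27.3 CPM in the caps (log2 fold change 1.64 ± 0.26 (SE), adjusted p = 0.0010). The call of cdh1.S was lost without DMZ replicate 2 or cap replicate 1 (adjusted p = 0.10 and 0.16) or without the replicate block (adjusted p = 0.16). The call of cdh2.L was lost without DMZ replicate 1 or cap replicate 1 or cap replicate 2 (adjusted p = 0.22, 0.18 and 0.10) or without the replicate block (adjusted p = 0.19). Higher cadherins, protocadherins and catenins calls numbered 2 without DMZ replicate 1, 1 without cap replicate 1, 2 without cap replicate 2 and 3 without the replicate block. In the cadherins, protocadherins and catenins list, lower calls numbered 1 without DMZ replicate 2, 1 without cap replicate 1, 1 without the replicate block, 6 with only the 4 libraries fitted and 5 by DESeq2. For the ephrins, Eph receptors and guidance list, the count of higher calls was 8 without cap replicate 2. Among ephrins, Eph receptors and guidance models, lower calls numbered 1 without DMZ replicate 1, 2 without DMZ replicate 2, 1 without cap replicate 1, 2 without cap replicate 2, 2 without the replicate block, 7 with only the 4 libraries fitted and 7 by DESeq2.

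Calls among matrix genes were higher in the DMZ with 1 exception, hapln3.L. In the list of extracellular matrix and integrins 13 of 76 tested models were called higher and 1 lower (median log2 fold change 0.32). The gene has2.L (gene39058), a hyaluronan synthase, was at 26.1 and 47.9 CPM in the DMZ against 4.68 and 5.18 CPM in the caps (log2 fold change 2.83 ± 0.27 (SE), adjusted p = 4.9e-06). The gene adamts1.S, a matrix protease, was at 204 and 269 CPM in the DMZ against 28.4 and 31.2 CPM in the caps (log2 fold change 2.96 ± 0.29 (SE), adjusted p = 9.3e-06), and lamb1.S, a laminin chain, at 78.6 and 44.8 CPM in the DMZ against 10.3 and 6.18 CPM in the caps (log2 fold change 2.90 ± 0.39 (SE), adjusted p = 0.00030). The groups did not overlap in these 3 genes. Fibronectin, fn1.S, was at 1031 and 1203 CPM in the DMZ against 789.6 and 856 CPM in the caps, and was not called. In the list of actomyosin and cell shape genes 12 of 73 tested models were called higher and 2 lower (median log2 fold change 0.03). The Cdc42 effector cdc42ep3.L was at 8.85 and 3.2 CPM in the DMZ against 0.363 and 0.225 CPM in the caps (log2 fold change 4.33 ± 0.50 (SE), adjusted p = 3.8e-05). Myosin heavy chain myh9.L, at 417 and 369 CPM in the DMZ against 411 and 368 CPM in the caps, was not called. The fitted log2 fold change moved by over 1.5 times in fold for cdc42ep3.L (3.66 without DMZ replicate 1). Higher extracellular matrix and integrins calls numbered 8 without cap replicate 2. In the extracellular matrix and integrins list, lower calls numbered 3 with only the 4 libraries fitted, 2 with only stages 11 to 12 fitted and 2 by DESeq2. For the actomyosin and cell shape list, the count of higher calls was 5 without DMZ replicate 1 and 7 without cap replicate 1. Among actomyosin and cell shape models, lower calls numbered 1 without cap replicate 2 and 1 with only the 4 libraries fitted.

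Lists of general cell state, of blood and endothelium and of vegetal transcripts were called to different extents. Of the pluripotency and early ectoderm list 7 of 33 tested models were called higher and 3 lower (median log2 fold change 0.02). The 3 genes called lower, tfap2c.S, klf17.L and klf5.S, also stand in the ectoderm list, and 4 of the 7 called higher were sox2 and sox3 models. The pluripotency factor pou5f3.1.L was not called, at 1369 and 852 CPM in the DMZ against 1264 and 919 CPM in the caps. Of maternal and cell cycle transcripts 1 of 46 tested models were called higher and 1 lower (median log2 fold change -0.19), of immediate early and stress genes 1 of 52 tested models were called higher and 3 lower (median log2 fold change 0.07), and of blood and endothelium genes 4 of 27 tested models were called higher and 1 lower (median log2 fold change 0.07). Of vegetal and germ plasm transcripts 5 of 35 tested models were called higher and 0 lower (median log2 fold change 0.03), the higher ones being both vegt copies, wnt11b.L and both otx1 copies, while dazl.L, at 1.83 and 7.04 CPM in the DMZ against 2.61 and 4.86 CPM in the caps, and ddx25.L, at 2.71 and 4.48 CPM in the DMZ against 3.48 and 3.16 CPM in the caps, which mark germ plasm, were not called. Levels of vegt.L were 154 and 273 CPM in the DMZ, 4.79 and 10.7 CPM in the caps and 399 and 238 CPM in the VMZ. Higher pluripotency and early ectoderm calls numbered 4 without DMZ replicate 1 and 4 without cap replicate 2. In the pluripotency and early ectoderm list, lower calls numbered 1 without DMZ replicate 2 and 9 with only the 4 libraries fitted. For the maternal cell cycle and oocyte list, the count of higher calls was 0 without DMZ replicate 1, 0 without cap replicate 1 and 0 with only stages 11 to 12 fitted. Among maternal cell cycle and oocyte models, lower calls numbered 2 with only the 4 libraries fitted. Higher immediate early and stress calls numbered 3 without cap replicate 1 and 3 by DESeq2. In the immediate early and stress list, lower calls numbered 1 without DMZ replicate 1, 1 without DMZ replicate 2, 1 without cap replicate 1, 1 without the replicate block and 7 with only the 4 libraries fitted. For the blood and endothelium list, the count of higher calls was 1 without DMZ replicate 1, 0 without cap replicate 1, 1 without cap replicate 2 and 1 without the replicate block. Among blood and endothelium models, lower calls numbered 0 without DMZ replicate 1, 0 without DMZ replicate 2, 0 without cap replicate 1, 2 with only the 4 libraries fitted, 0 with only stages 11 to 12 fitted and 3 by DESeq2. Higher vegetal and germ plasm maternal transcripts calls numbered 3 without DMZ replicate 2, 2 without cap replicate 1, 2 without cap replicate 2 and 2 with only stages 11 to 12 fitted. Of vegetal and germ plasm maternal transcripts models, 3 were lower at an unadjusted p under 0.05 in edgeR and 0 were called lower by DESeq2.

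The L and S copies could be compared in 5024 gene pairs. Both copies were called higher in 106 and both lower in 27, 1 copy alone was called in 429, and in 2 pairs the copies were called in opposite directions. In 306 of the 429 the other copy had the same sign, and the share of same sign over all 5024 pairs was not counted. The L to S ratio itself differed between DMZ and cap in 347 pairs (6.91%, limma with Benjamini-Hochberg adjusted p under 0.05), with the L share higher in the DMZ for 163 and the S share for 184. Without DMZ replicate 2 there were 223 such pairs, without cap replicate 1 there were 202, and without the replicate block 205. For tpbg, a membrane inhibitor of Wnt signalling in zebrafish, L made up 71.3 and 71.2% in the DMZ libraries and 23.3 and 20.9% in the caps of the pair's counts (difference in log2 L over S 3.12 ± 0.16 (SE), adjusted p = 4.5e-09). For cdx2 the shift was the other way, with L at 58.6 and 55.7% in the DMZ libraries and 93.3 and 89.3% in the caps (difference in log2 L over S -3.0 ± 0.19 (SE), adjusted p = 5.3e-08). L made up 67.6 and 68.0% in the DMZ libraries and 96.1 and 95.4% in the caps for creb3l2, a membrane-bound transcription factor of the secretory pathway (difference in log2 L over S -3.43 ± 0.17 (SE), adjusted p = 4.5e-09), and 45.4 and 29.8% in the DMZ libraries and 4.76 and 0% in the caps for the potassium channel kcnk6 (difference in log2 L over S 4.23 ± 0.34 (SE), adjusted p = 1.8e-06). In these 4 pairs both DMZ libraries lay on the same side of both caps, but the pairs were picked for smallest p, so this is no separate check. The kcnk6 shares in the caps rest on 42 and 30 counts. With no L count in cap replicate 2, the kcnk6 difference has no defined size. Its fitted value and SE depend on the 0.5 added to the counts. Reads that match both copies are assigned by estimation in kallisto, so ratios of near-identical copies are uncertain.

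**Figure D5:**
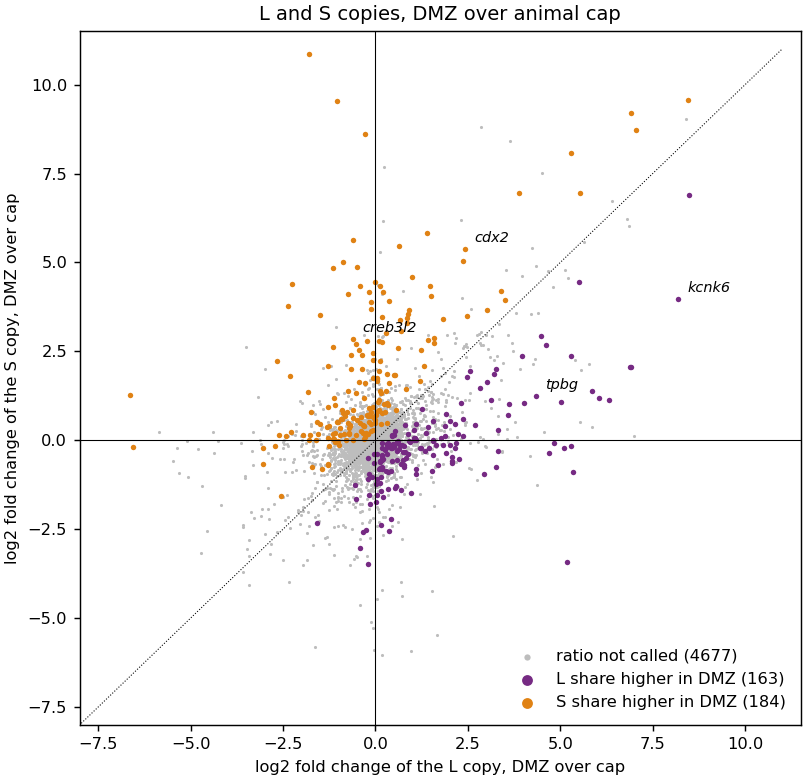
Log2 fold change of DMZ over animal cap for the L copy (horizontal) and the S copy (vertical) of 5024 gene pairs, purple where the L share was called higher in the DMZ (163), orange where the S share was (184) and grey where the ratio was not called (4677). Points near the dotted diagonal are pairs whose copies differ alike, and the pairs tpbg, creb3l2, cdx2 and kcnk6 are labelled.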

How the data were processed

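RNA of X. laevis explants was sequenced in 24 libraries, 12 groups of 2, and 4 of them are compared. Per the submitters' processing notes, Trim Galore, kallisto and DESeq2 were used. No source used here names their versions, the genome build or the strand setting. A gene and an antisense or near-identical partner may share reads. The deposited count table gives whole-number counts for 31694 gene models and was used as deposited. The authors' second table gives a log2 value (rlog) per group, an adjusted p-value whose test is not named, and a cluster number per model, and only its gene names were used.

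Counts were analysed with edgeR 4.0.16 in R 4.3.3. Models with a count of at least 10 in enough libraries for 1 group and a total of at least 15 were kept (31349). TMM factors scaled the library sizes. The quasi-likelihood model, with 12 group coefficients and the replicate number as a block, was fitted to all 24 libraries (11 residual degrees of freedom, biological coefficient of variation 0.214). The DMZ was contrasted with the cap at stage 11, p-values were Benjamini-Hochberg adjusted over all tested models, and an adjusted p under 0.05 was called. The labels do not say what a replicate number shares. Deviations from the group mean correlated between libraries of the same number above 0.1 in all 66 pairs of groups (lowest 0.24, median 0.41, highest 0.67, DMZ with cap 0.51), and the numbers were taken to pair the libraries on this check. L to S ratios, log2 of counts with 0.5 added, were tested with limma 3.58.1 over 5024 pairs. Intervals and floors cover counting error only. A floor is 3 counts over both libraries of a group.

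Members and lists were chosen with earlier results of these data known. Genes named were taken from the 10 largest called rises and falls with a symbol, a mean of 5 CPM or more where higher and groups that do not overlap, the 3 largest called members of each list, any other list member given with its values, and the 4 pairs of smallest p for the L to S ratio. Not all genes that the rule gives are named. With members that have no count in 1 tissue at their bound, the list medians shifted by at most 0.18 in log2, except for muscle genes (0.73 to 0.38). Alternatives were other scalings, filters and fits, DESeq2 1.42.0, summed L and S counts, thinned libraries and each library left out. Promoter motifs and sequences were not analysed here. Results of a few genes are not reported here.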

Additional observations from a re-analysis of the deposited data

How the results depend on the processing

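Without the replicate block 781 models were called higher and 225 lower, and 205 pairs of copies differed in L to S ratio, against 1195, 497 and 347 with it, the numbers pairing the libraries by their deviations. Against a fold of 1.5 (glmTreat) 633 and 153 were called. Lower calls rose to 1006 with only the 4 libraries fitted and to 811 by DESeq2, and the cause was not tested. Leaving out 1 library gave 636 to 1067 higher calls, 163 to 424 lower calls and 202 to 306 pairs. The other scalings, filters and fits, summed copies and thinning kept each count within 1.5 times. Of 2896 values of 181 genes under these alternatives, 2618 kept their direction and side of the threshold, 227 lost the call, 51 gained it and 0 reversed. Of the 168 called genes, 115 kept the call without each library, and 53 lost it at least once. Of 992 list counts, 781 stayed within 1.5 times. The depth of DMZ replicate 2 limits genes near 0.384 CPM, the level of 3 counts in that library alone.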
